A study of Mus musculus with 12 samples.

Results

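The genes described here are 10 liver enzymes of one-carbon, methionine and choline metabolism: Mat1a, Gnmt, Bhmt, Bhmt2, Cbs, Cth, Ahcy, Pemt, Nnmt and Shmt1. They were chosen by name. Each was read from the probesets that the platform annotation gives to that gene alone, and by the brightest of them where a gene had several. All 10 had such a probeset and all 10 passed the filter on dim probesets, out of 18193 genes named on the array and 11899 that passed the filter. The liver RNA came from male C57BL/6 mice obtained from Jackson Labs, with free access to food and water. One group drank water with low-dose penicillin after weaning (6 mice, 1 array each), and the control group was given no antibiotic (6 mice, 1 array each). Livers were taken after 7 weeks of this. Age in days, cage, dose, hour of collection and order of processing are not given in the sources used here. Where mice shared a cage and its water bottle, cage and treatment cannot be told apart.

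The methionine cycle makes S-adenosylmethionine, the methyl donor of most methylation reactions in a cell, and recycles what is left after the methyl group has been passed on. The liver carries out much of this traffic in a mammal, and hepatocytes hold enzymes that few other cells express, among them Mat1a, Gnmt and Bhmt. Homocysteine, the branch point, is either methylated back to methionine, with methyl groups from folate or from choline by way of betaine, or drained into cysteine through transsulfuration. Choline in turn is drawn from the diet or made in the liver by methylating phosphatidylethanolamine.

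Values below are log2 intensities, so a difference of 1 is a doubling, and the lowest and highest values of the whole table were 2.3 and 15.16. Probesets differ in how brightly they report, so levels of different genes are not compared. Differences are penicillin minus control, from limma fitted on all 11899 genes, with Benjamini-Hochberg adjustment over all of them. The hepatocyte genes Alb, at 14.93 to 15.02 over the 12 arrays, and Ttr, at 14.68 to 14.76, were high in every liver. Some arrays stood apart by genes outside this pathway. Fos, an immediate early gene, read 11.29 to 11.85 in control 1, 3 and 5 and 5.84 to 7.46 in the other 9 arrays. Dbp, an output gene of the circadian clock, ran from 6.44 to 12.05. A clock score, the mean of 7 genes that peak with Dbp minus that of 4 that peak opposite to it, was 1.80 to 2.11 in penicillin 1, 5 and 6 and in control 6, and -2.33 to 0.75 in the other 8. Results are therefore also given without control 1, 3 and 5.

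No difference between penicillin-treated and control livers passed the test for any of the 10 genes. limma called 0 of 10 members and 0 of all genes at an adjusted p under 0.05 (0% of 11899), and the smallest adjusted p among the members was 0.797. At an unadjusted p under 0.05 it called 0 members, against 7.98% of all genes. Differences ran from -0.25 for Nnmt to 0.05 for Shmt1, with a median of -0.04 for the members and 0.01 for all genes. The median absolute difference was 0.05 for the members and 0.07 for all genes. Of the 10, 2 had a higher mean with penicillin, where 52.8% of all genes did. No member had every penicillin array above every control (0.261% of all genes) or below every control (0.151%). Without control 1, 3 and 5, limma again called 0 members and 0% of all genes at an adjusted p under 0.05, and at an unadjusted p under 0.05 it called 0 members against 4.10% of all genes. Then 6 of the 10 had a higher mean with penicillin, against 46.9% of all genes, and the members' median difference was 0.03.

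**Figure D1:**
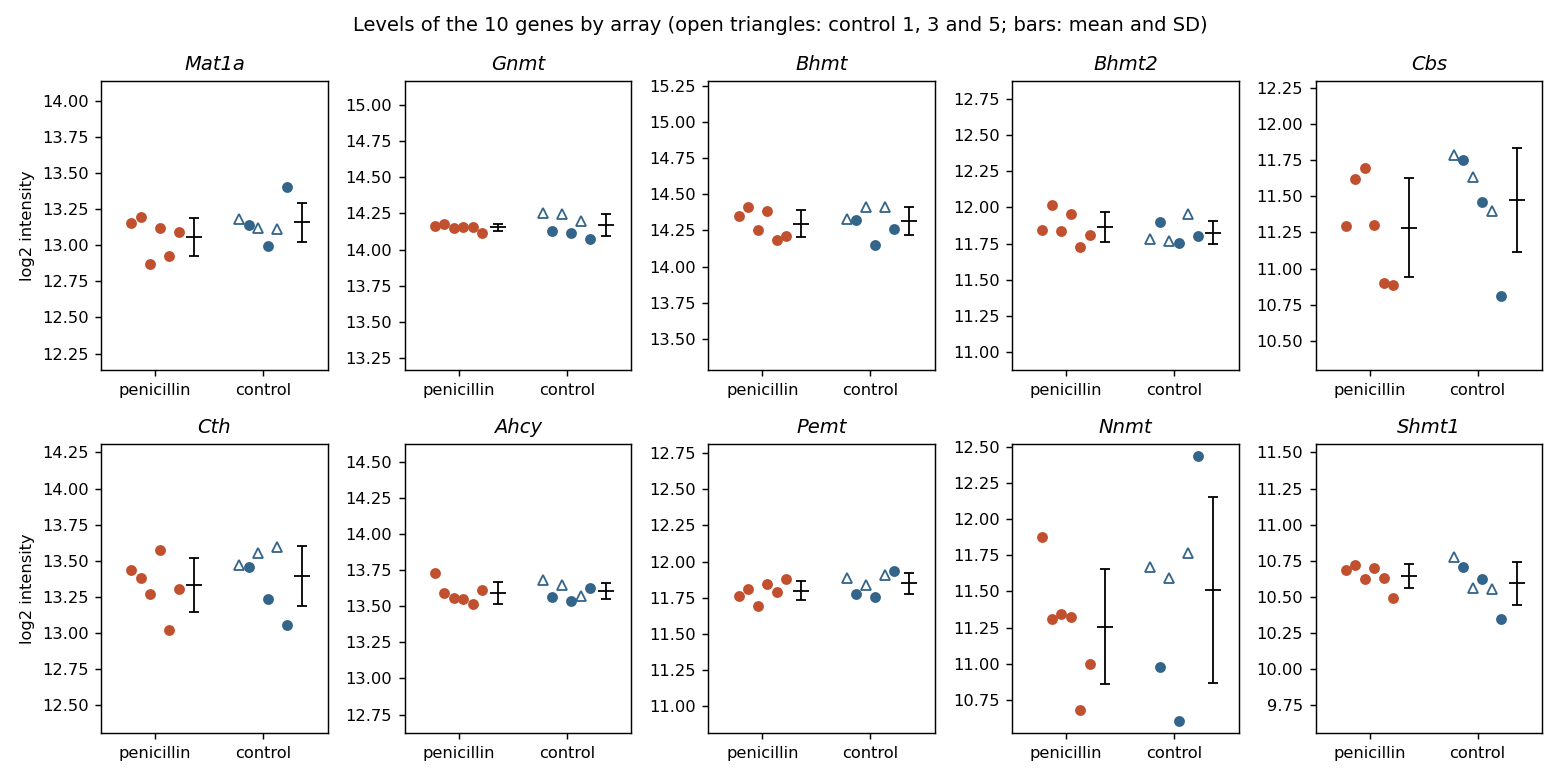
Log2 intensity of each of the 10 genes (y axis, spanning 2 log2 units in every panel) on the 6 penicillin and 6 control arrays, drawn in replicate order from 1 to 6. Circles and open triangles are single arrays, triangles mark control 1, 3 and 5, and bars give the mean and SD. The groups overlap in every panel, and Cbs and Nnmt spread farthest.

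For Mat1a, Gnmt and Ahcy, which make S-adenosylmethionine, spend it on glycine and clear its product, the groups overlapped and the differences were between -0.10 and -0.01. Mat1a encodes the liver form of methionine adenosyltransferase, which makes S-adenosylmethionine. Its lowest, median and highest values were 12.87, 13.11 and 13.19 with penicillin and 13.00, 13.13 and 13.40 in controls. It had the smallest p among the members, with a difference of -0.10 (SE 0.08, unadjusted p = 0.218, adjusted p = 0.797), which was -0.05 without control 6. The 2 lowest arrays were penicillin 3 and 5 and the highest was control 6, while the other arrays overlapped. The 95% interval, written as a ratio of penicillin to control, ran from 0.831 to 1.05.

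Gnmt encodes glycine N-methyltransferase, an abundant liver enzyme that spends S-adenosylmethionine on glycine. It was the steadiest of the 10. Its lowest, median and highest values were 14.12, 14.16 and 14.18 in penicillin livers and 14.07, 14.17 and 14.26 in control livers. The ratio of penicillin to control was 0.988 with a 95% interval of 0.920 to 1.06. The spread was smaller among penicillin arrays (SD 0.02) than among controls (SD 0.07), and control 1, 3 and 5 had the 3 highest values of all, 14.20 to 14.26, against 14.07 to 14.18 in the other 9 arrays. Without those 3 controls the difference turned to 0.05 (unadjusted p = 0.416).

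Ahcy encodes the enzyme that splits S-adenosylhomocysteine, the product of methylation, into homocysteine and adenosine. It averaged 13.59 ± 0.08 with penicillin and 13.60 ± 0.06 in controls (SD, n = 6), with the highest array of all being penicillin 1 at 13.73 and the lowest penicillin 5 at 13.51. The ratio was 0.991 (95% interval 0.918 to 1.07, adjusted p = 0.971). Penicillin arrays lay at both ends of the control range. The within-group SDs of Gnmt and Ahcy ranked at the 1.8 and 4.2 percentiles of all genes, but at the 50.0 and 47.9 percentiles of the 68 and 142 genes whose mean lay within 0.5 of theirs.

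Bhmt and Bhmt2 return methyl groups to homocysteine. Bhmt uses betaine, the oxidation product of choline, and Bhmt2 uses S-methylmethionine, a compound of plant food. They are neighbours on mouse chromosome 13, with 0 annotated genes between them, and both are read on the minus strand. Their upstream windows are shown because they differ in make-up while the levels of the genes varied together in 9 of the arrays, as described further on. Each window is the 250 bases before the RefSeq start site in build GRCm38.p6, minus strand, at chr13:93637759-93638008 for Bhmt and chr13:93674303-93674552 for Bhmt2. Capitals mark matches on either strand to AGGTCA (a nuclear receptor site), CCAAT and GGGCGG (GC box), of 10 motifs searched.
Bhmt: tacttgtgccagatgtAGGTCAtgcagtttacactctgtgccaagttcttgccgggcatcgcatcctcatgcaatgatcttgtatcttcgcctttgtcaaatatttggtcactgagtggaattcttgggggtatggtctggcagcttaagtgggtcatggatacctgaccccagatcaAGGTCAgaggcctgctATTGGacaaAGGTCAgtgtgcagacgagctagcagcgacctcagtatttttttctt
Bhmt2: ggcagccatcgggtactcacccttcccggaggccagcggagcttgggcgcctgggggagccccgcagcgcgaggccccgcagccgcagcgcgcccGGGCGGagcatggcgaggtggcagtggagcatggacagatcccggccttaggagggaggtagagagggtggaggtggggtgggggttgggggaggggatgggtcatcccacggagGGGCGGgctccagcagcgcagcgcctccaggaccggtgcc

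The Bhmt window held AGGTCA 3 times, at -234, -72 and -47 from the start site, and CCAAT once at -56, and 48.0% of its bases were G or C. The Bhmt2 window held GGGCGG at -155 and -40 and was 74.0% G or C. Of 32851 windows of the same length over all mouse genes, 14.0% held AGGTCA, 33.8% CCAAT and 32.7% GGGCGG. These are matches of letters and not measured sites. The other motifs searched on both strands were CACGTG (E-box), TTATGTAA and TTACGTAA (D-box), TGANTCA (AP-1), TGACGTCA (CRE), TGATGNAA (amino acid response) and TATAAA.

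Bhmt stood at 14.18, 14.30 and 14.41 with penicillin (lowest, median, highest) and at 14.15, 14.33 and 14.41 in controls. The groups covered the same range. Its ratio was 0.988 (95% interval 0.900 to 1.08, adjusted p = 0.967), and without control 1, 3 and 5 the log2 difference was 0.05 in place of -0.02 (unadjusted p = 0.506). Bhmt2 stood at 11.73, 11.84 and 12.02 with penicillin and at 11.76, 11.79 and 11.96 in controls, a ratio of 1.03 (95% interval 0.938 to 1.13, adjusted p = 0.920). Penicillin arrays gave both the highest and the lowest Bhmt2 value. Its second, dimmer probeset differed by 0.07 (SE 0.07) and followed the brighter one across arrays (r = 0.871 of deviations from group means over 12 arrays). The names of this brighter probeset, of the brightest of Cbs and of the third of Shmt1 end in _s_at, which marks probes that can pair with transcripts of more than 1 gene, so a part of their signal may be shared.

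**Figure D2:**
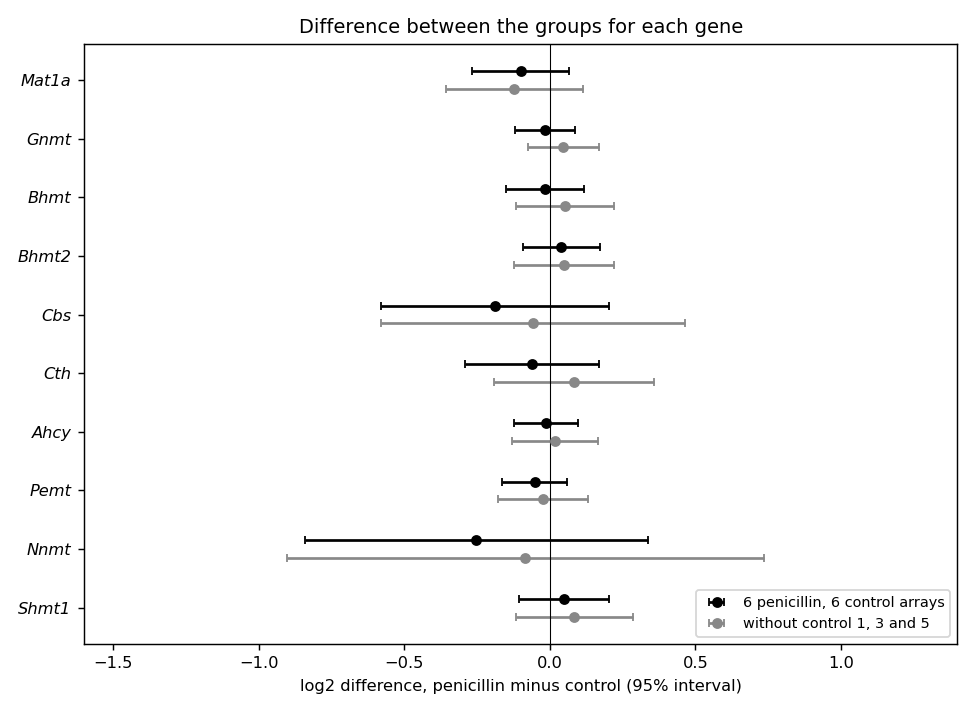
Log2 difference between penicillin and control (x axis) for each of the 10 genes, with 95% intervals from limma, over all 12 arrays (black) and without control 1, 3 and 5 (grey). Every interval spans 0, and those of Nnmt and Cbs are the widest.

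Transsulfuration genes varied more from mouse to mouse than between the groups. Cbs encodes cystathionine beta-synthase, which joins homocysteine to serine and commits it to cysteine. Its 250 upstream bases are shown because Cbs was lowest in the arrays with high clock scores. They lie at chr17:31637206-31637455 in GRCm38.p6, minus strand, with CACGTG (E-box), CCAAT and GGGCGG on either strand in capitals.
Cbs: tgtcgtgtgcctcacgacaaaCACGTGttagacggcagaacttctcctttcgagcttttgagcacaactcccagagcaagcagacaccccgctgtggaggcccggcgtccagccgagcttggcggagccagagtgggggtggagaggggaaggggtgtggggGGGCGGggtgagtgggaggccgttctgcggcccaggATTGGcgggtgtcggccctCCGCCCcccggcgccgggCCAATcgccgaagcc

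The E-box letters stood at -229, and 6.02% of all windows held them. This is a match of letters and not a measured site, and any link to the clock score was not tested. No match to either D-box spelling was found in this window. The annotated Cbs gene reaches position 31637233, so the part of the window nearest the start site used lies inside the gene. Cbs stood at 10.89, 11.30 and 11.70 with penicillin (lowest, median, highest) and at 10.81, 11.55 and 11.78 in controls. The groups overlapped throughout, and each held an array near the bottom of the range. The highest array was 1.96 times the lowest. The difference was -0.19 (SE 0.18, adjusted p = 0.854), with a 95% interval of 0.668 to 1.15 as a ratio. It was -0.06 without control 1, 3 and 5, which moves the value by more than 1.5 times, and -0.32 without control 6. The within-group SD ranked at the 91.2 percentile of the 534 genes of similar level.

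Cbs split the arrays by clock score, by a narrow margin, and no other member did. The share of all genes that split so was not counted. Penicillin 1, 5 and 6 and control 6, the arrays with the highest clock scores, read 10.81 to 11.29, and the other 8 read 11.30 to 11.78, so the nearest arrays of both sets all but touched. A second probeset of Cbs varied with the first across arrays (r = 0.975 of deviations from group means over 12 arrays). It differed by -0.21 between the groups (SE 0.29) and by 0.04 without control 1, 3 and 5. With the clock score as a covariate, the group difference of the brightest Cbs probeset was -0.11 (SE 0.16). Without penicillin 1, 5 and 6 and control 6 it was -0.07 (SE 0.12). The part of the clock in the level of Cbs was not itself tested.

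Cth encodes cystathionine gamma-lyase, which releases cysteine from the product of Cbs. It stood at 13.02, 13.34 and 13.57 with penicillin and at 13.06, 13.46 and 13.60 in controls. The lowest arrays were penicillin 5 and control 6, 1 in each group, and the rest overlapped. The difference of -0.06 (SE 0.11, adjusted p = 0.924) turned to 0.08 (unadjusted p = 0.519) without control 1, 3 and 5, which read 13.47 to 13.60. The 95% interval over all arrays was 0.817 to 1.12 as a ratio. Like Cbs, Cth had a wide spread for its level, at the 91.4 percentile of the 175 genes within 0.5 of its mean.

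**Figure D3:**
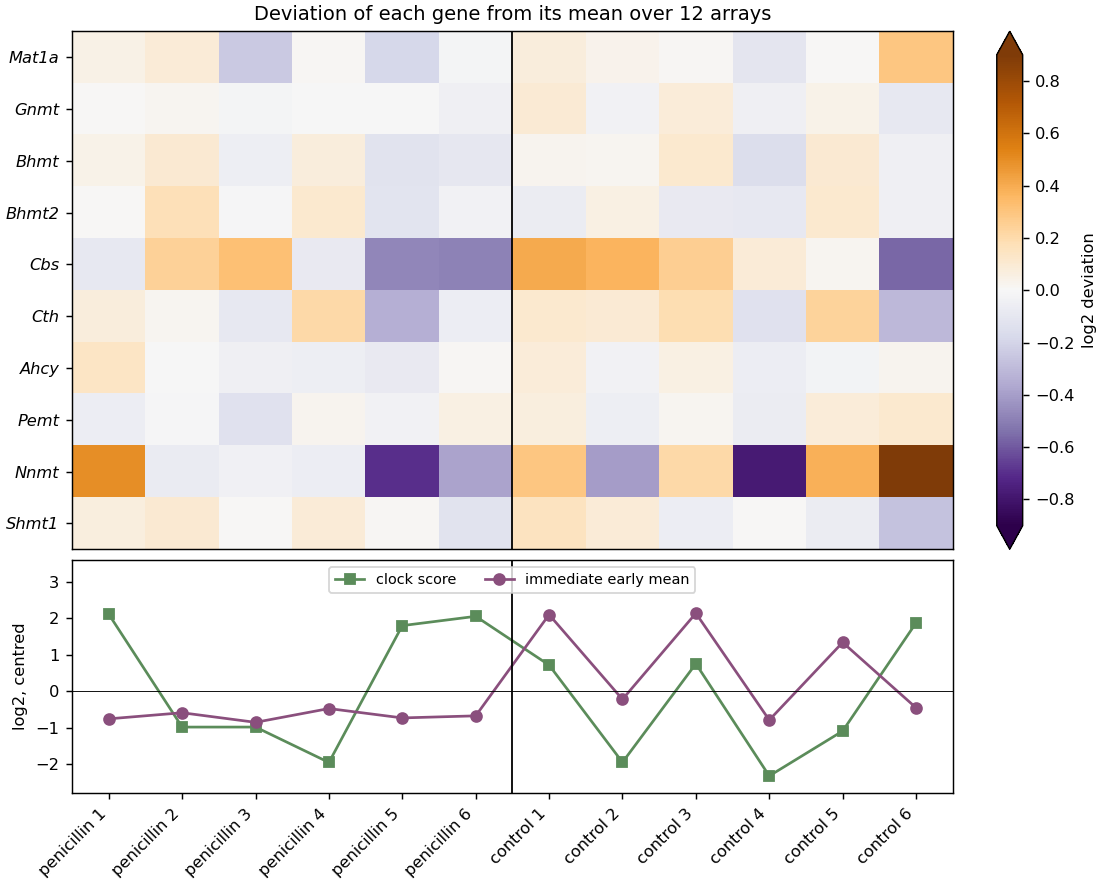
The upper panel gives the log2 deviation of each gene from its mean over 12 arrays (colour scale, ending at -0.9 and 0.9), with penicillin arrays left of the line and control arrays right of it. The lower panel gives the clock score and the mean of immediate early genes on the same arrays (log2, centred). Cbs is low in penicillin 5 and 6 and control 6, and Nnmt is high in penicillin 1 and control 6.

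Shmt1, cytosolic serine hydroxymethyltransferase, moves a carbon unit from serine to folate, and its probesets did not give a single answer. The brightest, on which the comparison rests, stood at 10.50, 10.66 and 10.72 with penicillin and at 10.35, 10.59 and 10.77 in controls, a difference of 0.05 (SE 0.07, adjusted p = 0.913). Its 3 other probesets all had a higher mean with penicillin, and for 2 of them the unadjusted p was under 0.05. The second brightest stood at 10.15, 10.42 and 10.54 with penicillin and at 9.90, 10.11 and 10.22 in controls, with 5 of 6 penicillin arrays above every control. Its difference was 0.30 (SE 0.08, unadjusted p = 0.00357), which did not pass over the 19906 probesets tested (adjusted p = 0.494). In an exact permutation test of this probeset alone, two-sided over all 924 assignments of arrays to groups, the exact p was 0.0108.

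The third stood at 9.66, 9.88 and 10.08 with penicillin and at 9.30, 9.57 and 9.76 in controls, with 4 of 6 penicillin arrays above every control. Its difference was 0.31 (SE 0.10, unadjusted p = 0.00602, adjusted p = 0.576, exact p = 0.0152). In that fit 3.83% of probesets were higher at an unadjusted p under 0.05, and 0% passed. The dimmest, the fourth, differed by 0.10 (SE 0.09). The second and the third probeset were singled out after their values were seen.

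Control 1, 3 and 5 carried part of this. The third probeset read 9.30 to 9.47 in them, below every other array, and without them its difference was 0.15 (unadjusted p = 0.147), whereas that of the second was 0.23 (unadjusted p = 0.0343). Leaving out single arrays moved the difference of the second between 0.26 and 0.34. Across arrays, deviations of the brightest probeset from the group means correlated at 0.654 with those of the second and at 0.003 with those of the third. With the mean of the 4 probesets in place of the brightest, Shmt1 was higher by 0.19 (unadjusted p = 0.0106, adjusted p = 0.515).

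The sequence before the RefSeq start site of Shmt1 is shown for the repeated GC boxes next to it, at chr11:60811266-60811515 in GRCm38.p6, minus strand, with CCAAT and GGGCGG on either strand in capitals. GGGCGG was found at -193, -76, -32 and -27, where the last pair of matches overlap by 1 base.
Shmt1: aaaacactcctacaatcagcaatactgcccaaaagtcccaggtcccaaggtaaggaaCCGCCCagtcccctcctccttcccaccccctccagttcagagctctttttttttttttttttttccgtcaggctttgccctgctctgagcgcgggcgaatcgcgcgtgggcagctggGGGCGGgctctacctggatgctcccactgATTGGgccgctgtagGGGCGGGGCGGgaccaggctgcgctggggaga

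**Figure D4:**
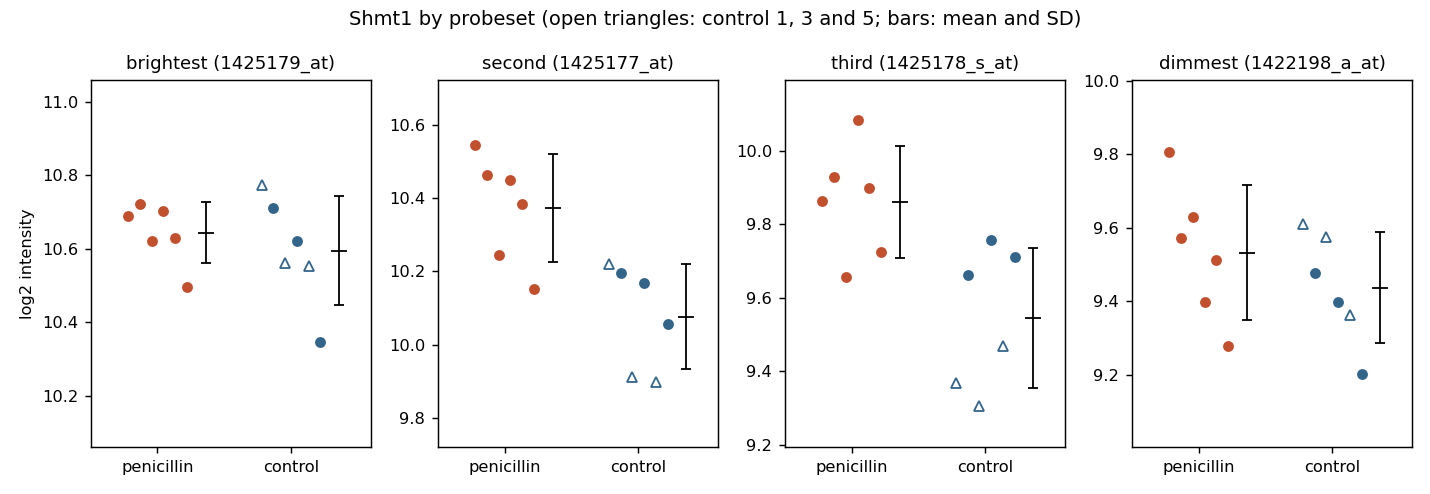
Log2 intensity of the 4 probesets of Shmt1 (y axis, spanning 1 log2 unit in every panel) from brightest to dimmest, on the 6 penicillin and 6 control arrays in replicate order, with triangles for control 1, 3 and 5 and bars for the mean and SD. Penicillin arrays lie above most controls for the second and the third, and the groups overlap widely for the others.

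Pemt and Nnmt encode methyltransferases that draw on the same methyl donor for different acceptors. Pemt turns phosphatidylethanolamine into phosphatidylcholine, the liver's own source of choline. It stood at 11.70, 11.80 and 11.88 with penicillin and at 11.76, 11.86 and 11.94 in controls. Penicillin 3 was the lowest of all arrays and control 6 the highest, with overlap between. The ratio was 0.964 (95% interval 0.892 to 1.04, adjusted p = 0.859). Its within-group SD was at the 15.8 percentile of genes of similar level, the lowest such rank of the 10.

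Nnmt methylates nicotinamide, which removes both a methyl group and a precursor of NAD. It was the most variable of the 10. It stood at 10.68, 11.32 and 11.88 with penicillin and at 10.61, 11.63 and 12.44 in controls, and the highest array was 3.56 times the lowest. Control 6 was the highest and control 4 the lowest, so the control group alone spanned all penicillin values. The difference of -0.25 (SE 0.27, adjusted p = 0.870) was the largest in size among the members and lay within this spread, with a 95% interval of 0.558 to 1.26 as a ratio. It was -0.08 without control 1, 3 and 5, -0.07 without control 6 alone and -0.43 without control 4. Arrays with high clock scores lay at both ends of the Nnmt range.

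No pair of the 10 genes passed a test of varying together among mice of the same group with all arrays. Deviations from the group means were correlated for all 45 pairs, with permutation tests within groups. Over 12 arrays 10 pairs by Pearson's r and 6 by Spearman's rho had an unadjusted p under 0.05, and 0 passed adjustment over the 45 by either. Pearson's r was at least 0.57 in size, the smallest among those 10, for 28.9% of the 45 pairs and for 12.2% of all pairs of the 11899 genes, as a description with no test. The closest pair was Bhmt with Cth (Pearson's r = 0.803, Spearman's rho = 0.762, permutation p = 0.00289 and 0.00868, adjusted p = 0.0866 and 0.184). Without the 2 arrays farthest from the median of Bhmt its r was 0.739. Cbs with Shmt1 had an r of 0.787 (rho = 0.664, permutation p = 0.00385 and 0.0226, adjusted p = 0.0866 and 0.184), which fell to 0.440 without the 2 arrays with the farthest Cbs and so rests in part on them.

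Without control 1, 3 and 5, 2 pairs passed in exact permutation tests over 4320 reorderings. Bhmt and Bhmt2 had an r of 0.922 (rho = 0.983, exact p = 6.94e-04 and 2.31e-04, adjusted p = 0.0208 and 0.0104) over 9 arrays, and 0.880 without the 2 farthest. Over all 12 arrays their r was 0.720 (rho = 0.678, adjusted p = 0.199 and 0.184 by permutation). The Bhmt2 probeset is one of those ending in _s_at. Whether it picks up transcripts of Bhmt, which would raise this correlation, was not tested. Gnmt and Shmt1 had an r of 0.943 over the 9 arrays (rho = 0.917, exact p = 9.26e-04 and 0.00116, adjusted p = 0.0208 and 0.0260), and 0.827 without the 2 farthest. Over all 12 their r was 0.570 (rho = 0.315, adjusted p = 0.381 and 0.634 by permutation), and -0.06 without the 2 farthest. Levels on 1 array share its RNA, its hybridisation and its normalization, and any part of these in the correlations was not tested.

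Other genes of the same pathways were read from 6 lists of 107 genes, of which 98 were named by a probeset and 91 passed the filter. limma called 0 of the 91, with a smallest adjusted p of 0.430. Of them 68 were higher and 23 lower with penicillin (74.7% higher, against 52.8% of all genes), with a median difference of 0.06. At an unadjusted p under 0.05, 9 were higher (9.89%, against 4.33% of all genes) and 1 lower (against 3.66%). Without control 1, 3 and 5, 53 of the 91 were higher (58.2%, against 46.9% of all genes), and 2 were higher at an unadjusted p under 0.05, against 1.85% of all genes. The lists were chosen with earlier results of these data known.

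In the lists that follow, the share of all genes with a higher mean is the 52.8% given above, or 46.9% without control 1, 3 and 5. Around choline, 17 of 22 genes were higher and 5 lower, and 14 were higher without those controls. Chpt1, choline phosphotransferase, which completes phosphatidylcholine in the route that starts from choline itself, had the smallest p of all 91. It stood at 11.75, 11.96 and 12.16 with penicillin and at 11.56, 11.66 and 11.86 in controls, with 5 of 6 penicillin arrays above every control. Its difference was 0.28 (SE 0.08, unadjusted p = 0.00245, adjusted p = 0.430) and 0.23 (unadjusted p = 0.0437) without control 1, 3 and 5. Ptdss2, a phosphatidylserine synthase, differed by 0.17 (SE 0.07, adjusted p = 0.584) and by 0.08 without those controls. Chka, choline kinase alpha, which is named after its values were seen, had the widest spread of the 91, from 6.19 to 9.37 with penicillin and from 6.68 to 9.55 in controls, and differed by -1.15 (SE 0.62, adjusted p = 0.682), or by -0.72 without control 1, 3 and 5. It read 6.19 to 6.97 in penicillin 1, 5 and 6 and control 6, the arrays with the highest clock scores, and 8.42 to 9.55 in the other 8. The share of all genes that split so was not counted, and the part of the clock in this was not tested.

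Methyltransferases and enzymes of nicotinamide use were higher in 12 of 16 cases, 4 of them at an unadjusted p under 0.05. Without control 1, 3 and 5, 10 of 16 were higher, 0 of them at an unadjusted p under 0.05, and the median difference was 0.02 in place of 0.12. Inmt, which methylates indole amines, stood at 12.99, 13.17 and 13.40 with penicillin and at 12.46, 12.84 and 13.07 in controls. Its difference of 0.34 (SE 0.11, adjusted p = 0.523) was 0.17 without those 3 controls. Aox1, an aldehyde oxidase that acts on methylated nicotinamide among other substrates, differed by 0.35 (SE 0.12, adjusted p = 0.567), and by 0.35 without them.

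In the methionine cycle and its salvage, 12 of 13 genes were higher and 0 reached an unadjusted p under 0.05. Leaving out control 1, 3 and 5, 9 of 13 were higher and the median difference was 0.05 in place of 0.09. The 2 smallest p were those of Adi1, a dioxygenase of methionine salvage (0.11, SE 0.06, adjusted p = 0.676), and Mat2b, the regulatory subunit of the other methionine adenosyltransferase (0.20, SE 0.11, adjusted p = 0.699, and 0.09 without those controls). Of 18 folate genes, 12 were higher and 6 lower, and 10 were higher without those controls. Shmt2, the mitochondrial counterpart of Shmt1, differed by 0.15 (SE 0.06, adjusted p = 0.593), and Ftcd, which passes a carbon unit from histidine breakdown to folate, by 0.09 (SE 0.05, adjusted p = 0.676).

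Genes of cysteine, glutathione and sulfide divided 8 higher to 5 lower, with a median difference of 0.01. Leaving out control 1, 3 and 5, 5 of the 13 were higher, and the median was -0.04. Mpst, a sulfurtransferase, differed by 0.19 (SE 0.08, adjusted p = 0.594) and Gss, glutathione synthetase, by -0.22 (SE 0.11, adjusted p = 0.665). Of 9 genes of cobalamin and pyridoxal, 7 were higher and 5 without those controls, with Pdxp, a pyridoxal phosphatase, at 0.25 (SE 0.12, adjusted p = 0.63) and Alpl, alkaline phosphatase, at 0.13 (SE 0.08, adjusted p = 0.735). Pdxp lay close to the filter of 4.73, at means of 4.90 with penicillin and 4.65 in controls.

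**Figure D5:**
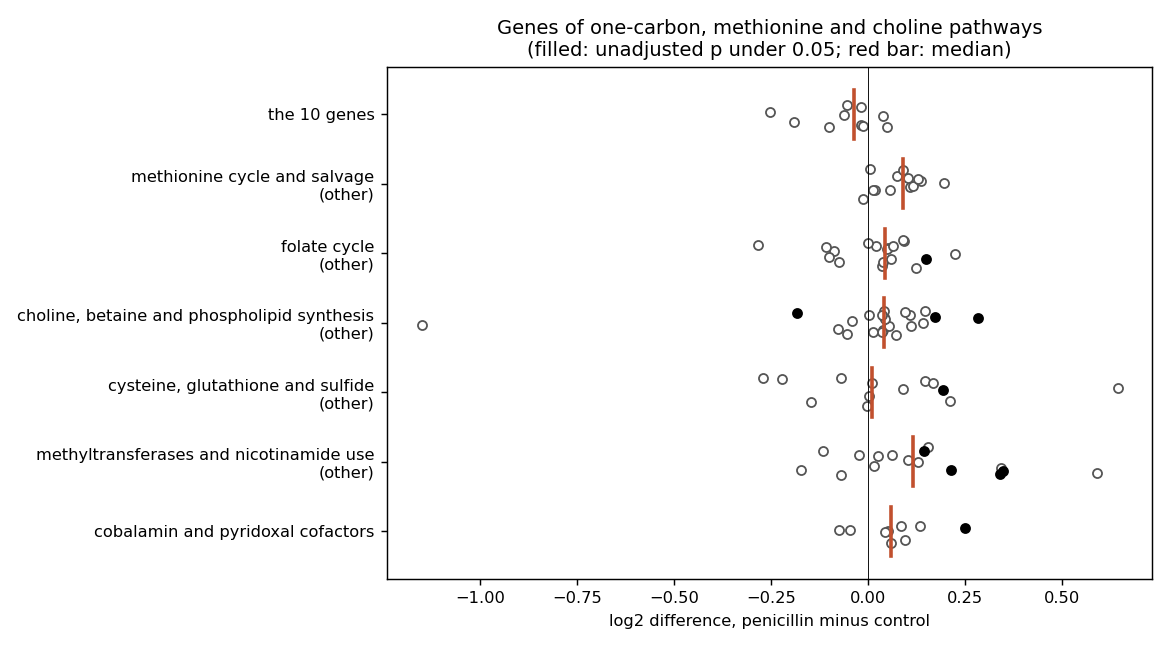
Log2 difference between penicillin and control (x axis) for the 10 genes and for the 91 other genes in 6 pathway lists (rows). Each circle is a gene, filled where its unadjusted p was under 0.05, and red bars are medians. The medians of all 6 lists lie above 0, that of the 10 genes below it, and none of the genes passed over all genes tested.

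Markers of liver zones and cell types are given because these enzymes sit mostly in hepatocytes, and some are uneven across the lobule. In bulk liver, fewer cells of a type and less RNA per cell cannot be told apart. The mean level of 10 hepatocyte markers, centred over the arrays, ran from -0.12 to 0.06 with penicillin and from -0.02 to 0.06 in controls. Of these 10 markers, 2 were higher with penicillin and 8 lower, where 52.8% of all genes were higher. Without control 1, 3 and 5, 2 were higher, against 46.9% of all genes. For 11 pericentral markers the mean level ran from -0.13 to 0.16 with penicillin and from -0.15 to 0.08 in controls, and for 9 periportal markers from -0.11 to 0.05 with penicillin and from -0.16 to 0.28 in controls. Ass1, the most variable periportal marker, was highest in control 2 (8.75) and lowest in control 3 (5.87). These arrays are also the ends of the periportal range. Single zone genes did not pass, with a difference of -0.03 for Glul and -0.0054 for Cyp2e1, both pericentral, and of 0.03 for Cyp2f2 and -0.12 for Hal, both periportal (adjusted p from 0.908 to 0.986). Aldh1a1, a retinaldehyde dehydrogenase of the pericentral list that is named after its values were seen, read 14.07 to 14.16 with penicillin and 13.89 to 14.03 in controls, with every penicillin array above every control. Its difference was 0.14 (SE 0.04, adjusted p = 0.519), and 0.13 without control 1, 3 and 5. The exact permutation p of 0.00216, the smallest possible, follows from that full separation and adds no support. Over all genes, 0.261% separated in this way. Of the 11 pericentral markers, 7 were higher with penicillin and 4 lower, where 52.8% of all genes were higher. Rgn, of the same list and named likewise, differed by 0.05 (SE 0.04, adjusted p = 0.815, exact permutation p = 0.0281). The 4 measured markers of bile duct cells ran from -0.53 to 0.08 with penicillin and from 0.07 to 0.27 in controls. These ranges just overlapped, and 0 of the 4 genes passed. Of 7 neutrophil markers, 5 were named by a probeset and 2 passed the filter. These, S100a8 and S100a9, ran from -1.69 to -0.51 with penicillin and from -0.32 to 2.28 in controls. For both, every penicillin array lay below every control, as for 0.151% of all genes. Their median difference was -1.79, or -1.62 without control 1, 3 and 5, and 0 of the 2 passed. The bile duct and neutrophil lists are shown because they parted the groups most among the cell types read. The lists of macrophages, stellate cells, endothelium, T and NK cells, B cells, exocrine pancreas and red cells also overlapped between the groups. After the filter, B cells had 3 markers, exocrine pancreas 2, red cells 1 and adipocytes 0. The part of other cell types in the values of the 10 genes was not tested.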

How the data were processed

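Total liver RNA was converted to biotin-labelled cRNA with an Affymetrix 3-prime kit, per the labels' protocols. The series table was deposited as 1 intensity for each probeset and array. The submitters' processing notes name RMA, a method that corrects background, aligns array distributions and combines probes. The deposited intensities were linear, and log2 was taken of each. Software versions are not given in the sources used here. Detection calls were not part of the table, and the number of arrays limits precision.

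Of 45037 probesets other than controls, 34945 had 1 gene in the platform annotation. Symbols were updated through gene identifiers with a RefSeq table (GRCm38.p6). Probesets with a mean under the median of all (4.73) were left out, and the brightest per gene was kept. limma 3.58.1 in R 4.3.3 compared penicillin with control (lmFit, eBayes, two-sided, Benjamini-Hochberg over 11899 genes, threshold 0.05), and was tested on simulated data. Replicates are separate mice, and all 12 arrays entered. Single probesets were also compared by exact permutation. Promoters came from RefSeq for 7 of the 10 genes; Mat1a, Cth and Nnmt were not matched.

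The members, lists and alternatives were chosen with earlier results of these data known. Named genes are the 10 members, the 2 genes of each pathway list with the smallest p, and fixed genes for array state and zones. Alb, Ttr, S100a8 and S100a9 are named from the cell type lists. Chka, Aldh1a1, Rgn and Ass1 were named after their values were seen. The replicate numbers were not taken to pair mice, because no label says that they do. Same-numbered arrays correlated at -0.255 to 0.385 in their deviations from group means. For replicates 2 and 6 (0.323 and 0.385) the same number was the best match, and for the others it was not.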

Additional observations from a re-analysis of the deposited data

How the results depend on the processing

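Each of the 10 genes was refitted under 26 alternatives, and Bhmt2, Cbs and Shmt1 also with each of their 5 other probesets in place of the brightest, and 0 of these 265 differences passed (smallest adjusted p = 0.491). In 248 the direction was the same and in 17 it was reversed. The 5 other probesets were refitted too, which gave 85 differences with 2 reversed and 0 passing (smallest adjusted p = 0.3). Without control 1, 3 and 5 the values of Gnmt, Bhmt, Cth and Ahcy turned to 0.046, 0.052, 0.083 and 0.017, and with the immediate early gene level as a covariate to 0.056, 0.068, 0.11 and 0.027. In the same 2 settings the second Cbs probeset turned to 0.042 and 0.11. Without control 6 and penicillin 1, 5 and 6, Bhmt was at 0.022 and Nnmt at 0.0042, against -0.25 in the comparison reported. Repeated quantile normalization put Ahcy at 6.46e-06. Leaving out 1 array at a time moved Bhmt between -0.050 and 0.0058, Ahcy between -0.041 and 0.0030 and Shmt1 between -3.34e-04 and 0.085. The count of members with a higher mean, 2 in the comparison reported, was 6 without control 1, 3 and 5 and with the immediate early covariate, 4 without control 6 and penicillin 1, 5 and 6, and 1 to 4 without single arrays. Members at an unadjusted p under 0.05 numbered 1 (Shmt1) where probesets of a gene were averaged. All genes at an unadjusted p under 0.05, 950 in the comparison reported, numbered 488 without control 1, 3 and 5, 535 with the immediate early covariate and 671 to 1244 without single arrays. With the replicate number as a block they numbered 1214, with 0 members and 0 genes past the threshold, so the block changed no call. It narrowed the SEs of Cbs, Shmt1, Mat1a and Ahcy and widened those of the other members. For Cbs the SE was 0.093 in place of 0.18 (limma unadjusted p = 0.0764). The second Shmt1 probeset had an unadjusted p of 0.00125 with the block. The smallest adjusted p of all genes was 0.0732 in place of 0.265. The cause of these shifts was not tested. At an adjusted p under 0.1 the comparison reported called 0 genes (950 at an unadjusted p under 0.05), while the block and the clock covariate called 2 genes each.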
